A study of Mus musculus with 27 samples.

Results

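Among 27 prostate tumours of TRAMP mice, 3 carried high transcript levels of Pkd1l3, a polycystin-family membrane protein gene best known from the sour-sensing cells of the mouse tongue, and they are described here against the other neuroendocrine tumours of the cross. The members were chosen by 2 values of the same arrays. A tumour counted as Syp-positive at a Syp level of at least 6.5 log2, Syp being the gene of the synaptic vesicle protein synaptophysin and a usual marker of neuroendocrine cells. A Syp-positive tumour counted as Pkd1l3-high where Pkd1l3 was above 7 log2. This gave 3 Pkd1l3-high tumours (P569, P803 and P1469) of 23 Syp-positive tumours and 27 tumours in all. The other 20 Syp-positive tumours form the main group to compare with, and the 4 Syp-low tumours (P425, P471, P966 and P1276) a second one.

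All 27 tumours came from transgene-positive F2 males of a cross of C57BL/6-Tg(TRAMP)8247Ng/J with PWK/PhJ, taken at 30 weeks or at a humane endpoint, with 1 array per tumour. Every animal therefore carried the TRAMP transgene, and none was transgene-negative. In this transgene the probasin promoter, active in androgen-stimulated prostate epithelium, drives the SV40 tumour antigens. The labels place the tumours in 1 group, so the classes are not groups of the study. Whole snap-frozen tumour pieces were profiled, and fewer cells of a type cannot be told apart from less RNA per cell. The values are log2 expression levels, on which 1 unit is a doubling of signal, and for the 3 Pkd1l3-high tumours they are given throughout in the order P569, P803 and P1469.

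Neuroendocrine cells store peptides and amines in secretory granules, and they are scattered through epithelia of the gut, airway, pancreas and prostate. Their granules hold granins such as chromogranin A, prohormone convertases that cut peptide hormones, and vesicular transporters that load amines such as serotonin. Neuroendocrine prostate tumours may keep the junctions and keratins of a glandular epithelium or may lack them and carry a more neuron-like set of cytoskeletal genes. In the tongue, PKD1L3 and PKD2L1 assemble into one channel complex that marks sour-sensing taste cells, whereas the proton channel needed for sour taste is OTOP1.

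The promoters of Pkd1l3, which defines the class, and of Tph1, a leading gene of the serotonin pathway in it, are shown because their transcripts were high in the same 3 tumours. They run 5′ to 3′ from 250 bases before to 50 after each start in the RefSeq table of the build GRCm38.p6, and capitals mark matches to the E-box letters CAGATG or CAGCTG, read on both strands. Tph1 has 2 listed starts.
Pkd1l3 promoter, chr8:109613984-109614283, plus strand: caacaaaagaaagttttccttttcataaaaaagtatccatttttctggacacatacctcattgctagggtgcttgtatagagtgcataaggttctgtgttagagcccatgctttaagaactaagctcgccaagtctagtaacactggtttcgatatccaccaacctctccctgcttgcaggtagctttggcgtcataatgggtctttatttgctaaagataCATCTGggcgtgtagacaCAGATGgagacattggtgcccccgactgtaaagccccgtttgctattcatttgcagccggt
Tph1 promoter, first start, chr7:46672488-46672787, minus strand: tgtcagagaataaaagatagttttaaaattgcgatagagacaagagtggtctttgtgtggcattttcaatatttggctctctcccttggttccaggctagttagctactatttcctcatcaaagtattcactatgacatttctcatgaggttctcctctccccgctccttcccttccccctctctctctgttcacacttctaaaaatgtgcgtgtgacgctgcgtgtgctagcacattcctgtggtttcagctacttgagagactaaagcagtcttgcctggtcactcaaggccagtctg
Tph1 promoter, second start, chr7:46667328-46667627, minus strand: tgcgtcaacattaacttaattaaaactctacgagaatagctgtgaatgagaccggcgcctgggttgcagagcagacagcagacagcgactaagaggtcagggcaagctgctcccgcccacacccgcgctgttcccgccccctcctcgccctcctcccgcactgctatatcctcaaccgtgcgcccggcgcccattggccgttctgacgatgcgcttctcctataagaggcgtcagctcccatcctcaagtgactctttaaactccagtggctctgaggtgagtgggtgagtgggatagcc
The Pkd1l3 window held CAGATG 2 times, once on each strand, and the Tph1 windows held none of the letters searched. E-box letters of either form were in 30.6% of the 32851 promoters of the table, in 4 of the 13 genes with a listed promoter among the 20 leading higher genes, and in 5 of 13 among the 20 leading lower genes. The forkhead letters TGTTTAC or TGTTTGC were in 8.48% of all promoters, and in 2 of 13 of either leading set. The percentages count single promoter windows, whereas a gene of the leading sets counted if any of its listed starts held a match. The 2 measures are therefore not alike. A match describes letters in a window and does not show a bound site.

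The 2 values that set the class left wide gaps. Pkd1l3 was 9.63, 9.73 and 9.003 log2 in the Pkd1l3-high tumours, against 4.78 to 5.59 (median 5.01) in the other 20. The member nearest the threshold was P1469 at 9.003 and the nearest tumour outside it was P217 at 5.59. Syp was 7.87, 8.14 and 8.39 log2 in the Pkd1l3-high tumours, against 7.41 to 8.74 (median 8.06) in the other 20, so that the classes overlapped on it. On the Syp threshold the nearest tumours were P1225 inside at 7.41 and P1276 outside at 6.18. No tumour changed class after quantile normalization or after centring each array on its median.

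**Figure D1:**
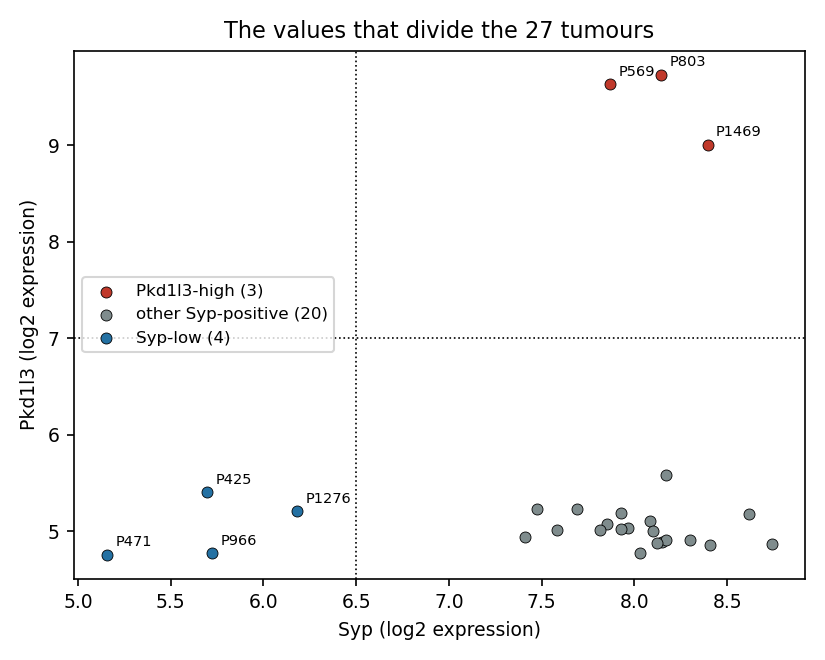
Each point is 1 of the 27 tumours, with Syp (log2) on the x axis and Pkd1l3 (log2) on the y axis, and lines at the thresholds of 6.5 and 7. The 3 Pkd1l3-high tumours lie at 9.003 or above on the y axis, while the other 24 lie at 5.59 or below.

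The 3 tumours resembled one another across the whole array. Pearson's r over all rows was 0.966 to 0.971 among the 3 pairs of Pkd1l3-high tumours, against 0.928 to 0.958 (median 0.943) over the 60 pairs of a Pkd1l3-high tumour with one of the other 20, and 0.928 to 0.986 (median 0.963) within the other 20. For each of the 3, the 2 nearest arrays were the other two Pkd1l3-high ones. With the 4 Syp-low tumours the r was 0.913 to 0.949 over 12 pairs. All arrays share the platform and its probe effects, so these r describe the arrays and were not tested.

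Across 22178 genes other than Pkd1l3 and Syp, 3425 (15.4%) differed between the Pkd1l3-high tumours and the other 20 at an adjusted p under 0.05 (limma with Benjamini-Hochberg adjustment over all genes). Of these, 2030 (9.15% of all genes) were higher and 1395 (6.29%) lower in the Pkd1l3-high tumours, and 660 and 431 of them differed by more than 1 log2 unit. For 672 genes (3.03%) all 3 Pkd1l3-high values lay above all 20 others, and for 466 (2.10%) all 3 lay below. The median difference over all genes was 0.04 log2. Because the classes were drawn from values of the same arrays, an adjusted p here only sets a difference against the spread between tumours, and the counts of gene groups below are to be read beside these percentages. The number of higher calls was 1172 and of lower calls 700 without P803, 1360 and 831 without P1469, and 1654 and 922 without P569. Where the level in a group lies below the median of all rows, 5.79 log2, it is close to background and the difference understates a fold.

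The markers named for the class followed its label in part. Cryba2, a crystallin-family gene that is also active in islet endocrine cells, was 7.80, 7.52 and 7.76 log2 in the Pkd1l3-high tumours, against 5.16 to 5.65 (median 5.46) in the other 20. Clca3b, of the chloride channel accessory family, was 7.29, 7.69 and 7.06 in the Pkd1l3-high tumours, against 4.21 to 5.32 (median 4.53) in the other 20. Neither overlapped between the classes. Pcsk1, the gene of prohormone convertase 1/3, was 11.59, 12.08 and 11.06 log2 in the Pkd1l3-high tumours, against 4.99 to 9.18 (median 7.66) in the other 20, a difference of 4.19. Stmn2, of the neuronal microtubule regulator stathmin 2, was 6.81, 6.25 and 7.06 in the Pkd1l3-high tumours, against 8.32 to 11.76 (median 10.11) in the other 20, a difference of -3.20. Cdh1, of the epithelial adhesion protein E-cadherin, was the exception to a clean split. It was 10.51, 10.46 and 10.58 log2 in the Pkd1l3-high tumours, against 5.71 to 10.65 (median 6.49) in the other 20, whose highest value was that of P219. P219 also carried the highest mean level of the 20 on the smooth muscle, skeletal muscle, luminal keratin and androgen-response lists, and it was the highest of the 20 for most of the epithelial genes below. These markers were picked with the class in view, so their values are a description and support nothing. All 5 were in the fit and are members of lists below, where their calls are among those counted.

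**Figure D2:**
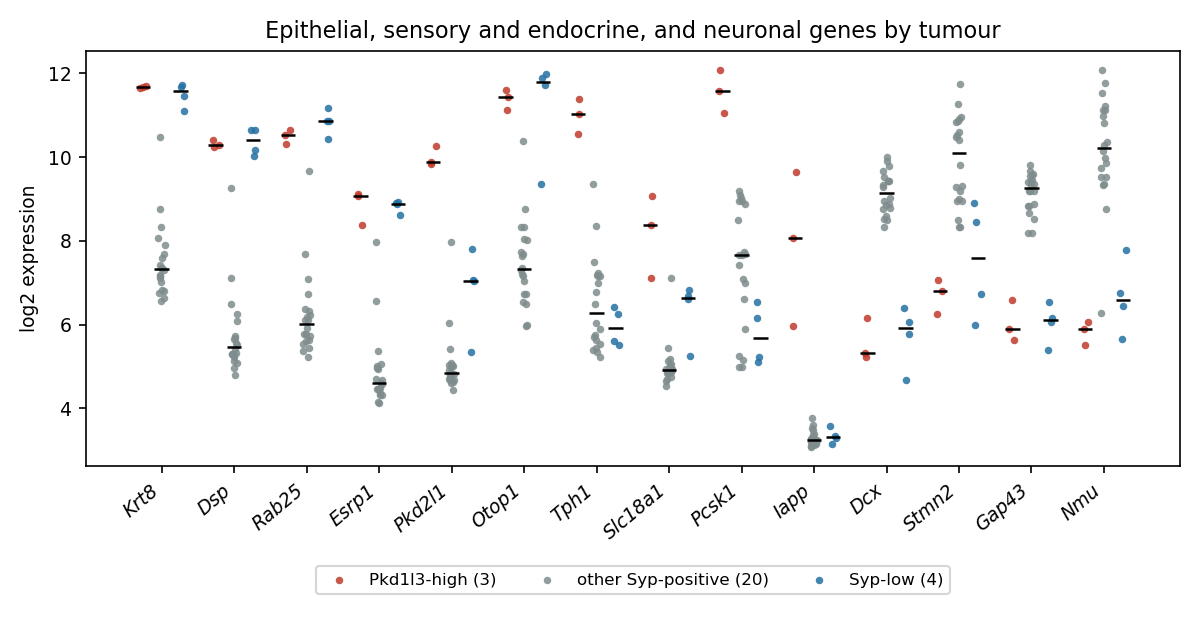
Log2 expression (y axis) of single genes (x axis) in the 3 Pkd1l3-high tumours (red), the other 20 Syp-positive tumours (grey) and the 4 Syp-low tumours (blue), with 1 point per tumour and a black bar at each class median. On Krt8, Pkd2l1 and Tph1 the 3 Pkd1l3-high tumours lie above all 20 others, and on Dcx and Gap43 below them.

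Genes of cell junctions and of a simple epithelium were higher in the Pkd1l3-high tumours as a broad set. Of 12 adherens junction and desmosome genes 10 were higher and none lower, with a median difference of 1.94 log2. The tight junction and polarity list had 15 of 18 higher and none lower (median 2.08). Among 9 luminal keratins and markers 6 were higher (median 1.98), among 12 epithelial regulators 6 (median 1.01), and among 10 membrane serine proteases and their inhibitors 4 (median 1.36), with none lower in any of them. With each of the 3 Pkd1l3-high tumours left out in turn, all 15 tight junction calls, all 6 regulator calls and all 4 protease calls were kept, whereas 3 of the 10 adherens junction and 2 of the 6 keratin calls were lost at least once.

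Krt8, a keratin of simple epithelia, was 11.68, 11.71 and 11.64 log2 in the Pkd1l3-high tumours, against 6.57 to 10.48 (median 7.33) in the other 20. The 3 values agreed closely (mean 11.68 ± 0.03, SD, n = 3, against 7.52 ± 0.90, n = 20), and the difference was 4.16 ± 0.50 (SE, limma adjusted p = 2.1e-06). Dsp, of the desmosomal plaque protein desmoplakin, was 10.25, 10.41 and 10.29 in the Pkd1l3-high tumours, against 4.78 to 9.27 (median 5.46) in the other 20 (4.56 ± 0.55, limma adjusted p = 2.3e-06). Neither gene overlapped between the classes, although P219 came within about 1 unit. Rab25, a small GTPase gene of epithelial membrane recycling, was 10.31, 10.52 and 10.66 in the Pkd1l3-high tumours, against 5.22 to 9.66 (median 6.01) in the other 20. Tmem30b, a flippase subunit gene, was 11.09, 11.22 and 11.75 in the Pkd1l3-high tumours, against 5.05 to 9.95 (median 6.63) in the other 20, with P268 rather than P219 the highest of the 20.

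The splicing regulator gene Esrp1, which directs epithelial exon choice, was 9.13, 8.37 and 9.07 log2 in the Pkd1l3-high tumours, against 4.12 to 7.97 (median 4.59) in the other 20. Elf3, an epithelial ETS factor gene, differed by 3.36, Esrp2 by 2.95 and Grhl2, a grainyhead-like factor gene, by 2.28. The claudin gene Cldn7 differed by 3.39 and the occludin gene Ocln by 3.66, both past the threshold. Cldn4 did not share this pattern, at 6.82, 5.73 and 5.34 in the Pkd1l3-high tumours, against 4.97 to 9.65 (median 5.87) in the other 20 (limma adjusted p = 0.87). Of the serine proteases, Tmprss4 differed by 3.19 ± 0.12 (limma adjusted p = 2.6e-15) and St14, of matriptase, by 3.80, together with their Kunitz-type inhibitor genes Spint1 (3.03) and Spint2 (2.42).

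Basal cell genes did not take part as a list. Of 11 measured, only the keratin gene Krt17 was past the threshold (difference 2.45), and it was uneven, at 9.78, 5.51 and 8.18 log2 in the Pkd1l3-high tumours, against 4.49 to 6.70 (median 5.42) in the other 20. Its adjusted p without P569 was 0.0605 (limma). Trp63, of the basal factor p63, was 6.01, 5.39 and 5.62 in the Pkd1l3-high tumours, against 5.08 to 5.66 (median 5.29) in the other 20, a level close to background in both. On the mesenchymal list 2 of 11 genes were lower and none higher. One was Zeb1, of a repressor of epithelial genes, at 5.98, 7.19 and 5.12 in the Pkd1l3-high tumours, against 6.40 to 8.13 (median 7.62) in the other 20 (-1.49 ± 0.30, limma adjusted p = 0.0012). P803 lay inside the range of the 20 for Zeb1.

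**Figure D3:**
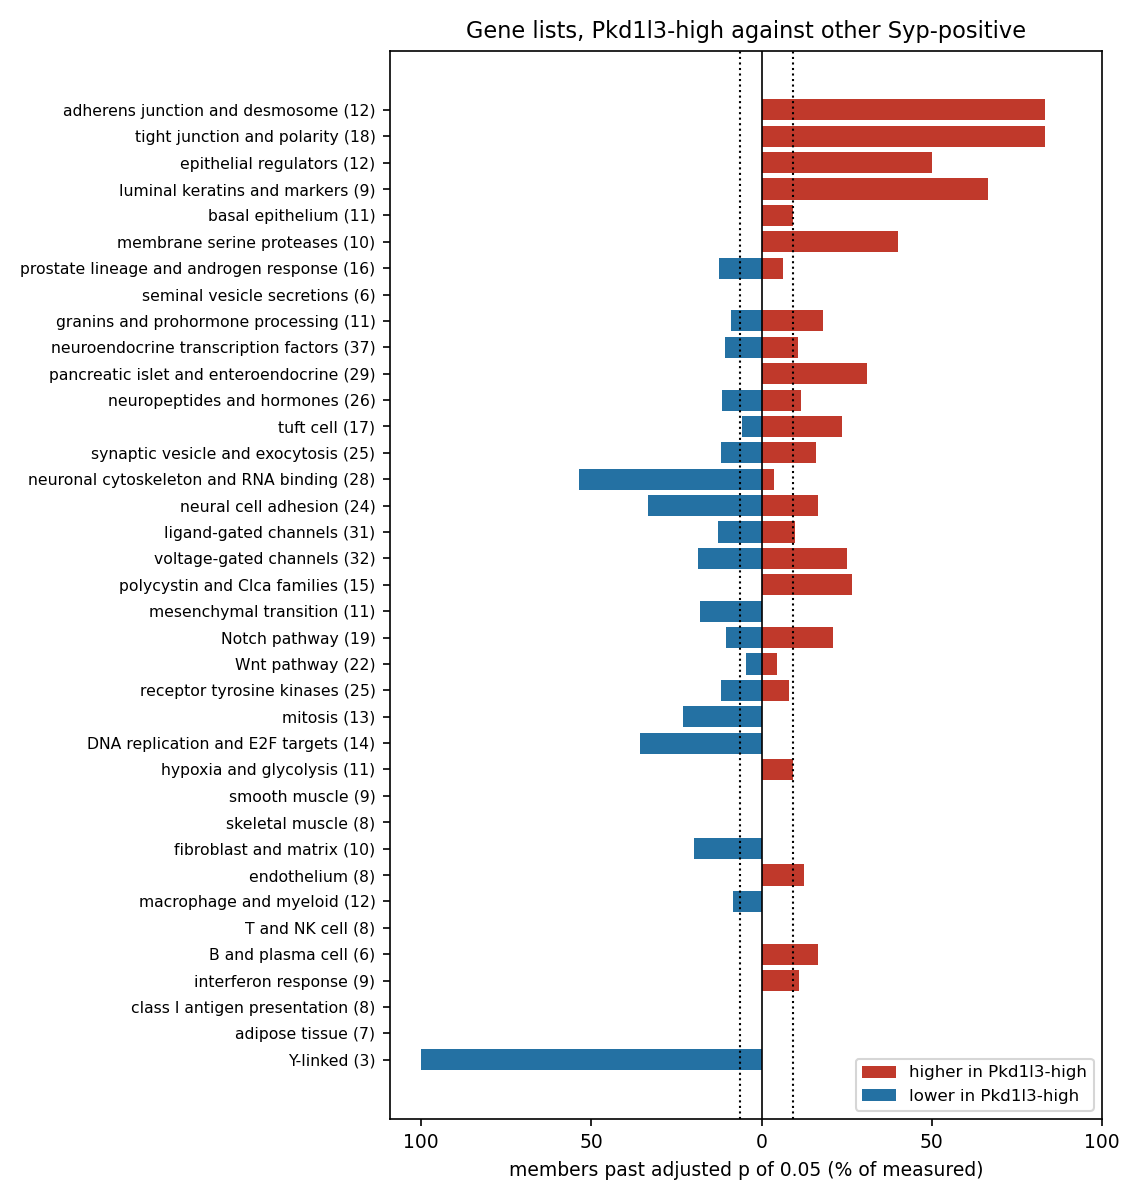
For each gene list (rows), the percentage of measured members (their number in brackets) that were higher (red, to the right) or lower (blue, to the left) in the 3 Pkd1l3-high tumours than in the other 20 at an adjusted p under 0.05 (x axis), with dotted lines at the percentage over all genes. The junction lists lean to higher (10 of 12 and 15 of 18) and the neuronal cytoskeleton list to lower (15 of 28), beside 9.15% and 6.29% of all genes.

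Beside Pkd1l3, the partner channel gene Pkd2l1 led the 20 genes named for the largest higher differences. Pkd2l1 was 10.25, 9.84 and 9.87 log2 in the Pkd1l3-high tumours, against 4.43 to 7.97 (median 4.83) in the other 20 (4.93 ± 0.42, limma adjusted p = 9.4e-09). The highest of the other 20 was P500, about 2 units below the lowest Pkd1l3-high tumour. Of the 15 measured genes of the polycystin and Clca families other than Pkd1l3, 4 were higher and none lower, namely Pkd2l1, the marker Clca3b, Clca4a (0.48) and the kidney polycystin gene Pkd1 (0.42). The median difference of the list was 0.16 log2, so most members moved little. The call of Clca4a was lost without P569, and that of Pkd1 without P569, without P803, with arrays centred on their median and with composition covariates.

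A set of genes of sour-sensing taste cells, Otop1 among them, was looked up after the values of Pkd2l1 and Otop1 had been seen. Their count supports nothing. Of 13 measured, 5 were higher and none lower. The 5 include Otop1 itself, Scnn1a, which was already among the 20 leading higher genes, and the granin gene Chga, described below. Otop1, of the proton channel, was 11.12, 11.59 and 11.44 log2 in the Pkd1l3-high tumours, against 5.97 to 10.37 (median 7.32) in the other 20, with P500 again the highest of the 20. Gad1, of the enzyme that makes GABA, was 9.85, 9.12 and 9.52 in the Pkd1l3-high tumours, against 5.03 to 6.83 (median 5.65) in the other 20 (3.80 ± 0.28, limma adjusted p = 6.2e-10). Scnn1a, of the alpha subunit of the epithelial sodium channel, was 10.64, 9.93 and 10.65 in the Pkd1l3-high tumours, against 5.25 to 8.66 (median 5.87) in the other 20. These 3 genes separated the classes. Car4, of a membrane carbonic anhydrase, was 7.98, 11.40 and 7.63 in the Pkd1l3-high tumours, against 5.66 to 8.81 (median 6.69) in the other 20, and without P803 its adjusted p was 0.255 (limma). The related genes Otop2, Otop3, Scnn1b and Scnn1g were not past the threshold, with differences of 0.12, 0.42, 0.32 and 0.26.

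The tuft cell list, of chemosensory cells that differ from sour-sensing ones, had 4 of 17 higher and 1 lower. Pkd2l1 is one of the 4. Avil, of the actin-binding protein advillin, differed by 1.59, and its call was lost without P1469 (limma adjusted p = 0.395). Pou2f3, the factor that specifies tuft cells, differed by 0.35 at a level near background, a call lost without each of the 3 tumours, and the kinase gene Dclk1 was lower by 1.93.

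Some islet and enteroendocrine genes, among them genes of serotonin synthesis and storage, were higher in the Pkd1l3-high tumours. On that list 9 of 29 genes were higher, none was lower and 20 did not pass the threshold (median difference 0.13 log2), and 3 of the 9 calls were lost at least once with 1 of the 3 tumours left out. Tph1, of the rate-limiting enzyme of serotonin synthesis outside the brain, whose promoter windows are printed above, was 11.04, 11.38 and 10.56 log2 in the Pkd1l3-high tumours, against 5.23 to 9.36 (median 6.26) in the other 20 (4.49 ± 0.62, limma adjusted p = 1.4e-05). Slc18a1, of a vesicular monoamine transporter, was 8.37, 9.08 and 7.11 in the Pkd1l3-high tumours, against 4.54 to 7.11 (median 4.91) in the other 20. P1469 and P219 were equal on it to 2 decimals. Its relative Slc18a2 was 9.43, 8.82 and 6.37 in the Pkd1l3-high tumours, against 5.28 to 7.87 (median 5.81) in the other 20, and its adjusted p was 0.0623 without P569 (limma).

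A set of 17 measured serotonin genes, receptor genes among them, was looked up after these values were seen. Of the 17, 4 were higher, 1 was lower and 12 were not past the threshold. The 4 were Tph1, Slc18a1 and Slc18a2, described above, and Gch1 (1.81), whose call was lost without P803 (limma adjusted p = 0.138). Ddc, of the decarboxylase that completes serotonin synthesis, was 10.98, 10.81 and 10.43 log2 in the Pkd1l3-high tumours, against 7.81 to 10.72 (median 9.87) in the other 20, and did not pass the threshold (limma adjusted p = 0.1). Maoa, of the enzyme that degrades serotonin, was 6.95, 7.77 and 7.12 in the Pkd1l3-high tumours, against 7.88 to 9.04 (median 8.25) in the other 20 (-1.02 ± 0.20, limma adjusted p = 0.00089). All 3 Pkd1l3-high tumours thus lay below the others on Maoa. The brain enzyme gene Tph2 and the serotonin uptake gene Slc6a4 stayed at or under 4.50 log2 in all 23 tumours.

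Iapp, of the islet peptide amylin, was among the genes that varied most within the class. It was 9.64, 8.07 and 5.96 log2 in the Pkd1l3-high tumours, against 3.06 to 3.77 (median 3.24) in the other 20 (4.60 ± 0.34, limma adjusted p = 7.9e-10). All of the other 20 lay below 5.79, the median of all rows. Neurog3, of the factor that commits islet and enteroendocrine progenitors, was 5.83, 10.55 and 8.83 in the Pkd1l3-high tumours, against 5.04 to 5.81 (median 5.42) in the other 20. P569 exceeded the highest of the 20 on it only by a small margin, and the high values were those of P803 and P1469. The later islet factors Neurod1, Pax6, Nkx2-2 and Rfx6 were not past the threshold, with differences of 0.05, -0.23, 0.08 and 0.20.

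Granin and neuroendocrine factor genes were called in both directions. Of 11 granin and processing genes 2 were higher, Chga and the marker Pcsk1, and 1 was lower, beside 9.15% and 6.29% of all genes. Chga, of chromogranin A, was 10.89, 11.55 and 11.33 log2 in the Pkd1l3-high tumours, against 8.70 to 10.56 (median 10.14) in the other 20 (1.26 ± 0.24, limma adjusted p = 0.00079). Scg3, of secretogranin III, differed by -0.60 (limma adjusted p = 0.041, and 0.0506 to 0.175 in the 5 fits without P569, P803, P1469, P233 or P1225). Chgb, of chromogranin B, was 8.47, 10.67 and 8.91 in the Pkd1l3-high tumours, against 7.92 to 10.08 (median 9.22) in the other 20. Scg2, of secretogranin II, was 7.40, 9.37 and 9.35 in the Pkd1l3-high tumours, against 6.79 to 11.34 (median 8.70) in the other 20, and Insm1, a core neuroendocrine factor gene, was 8.86, 9.02 and 8.60, against 7.73 to 9.35 (median 8.49) in the other 20. The 3 Pkd1l3-high tumours thus sat within or above the range of the other Syp-positive tumours on all of these but Scg3, where P569 and P1469 lay just below it.

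Among 37 neuroendocrine factor genes 4 were higher and 4 lower. Beside Neurog3, the higher ones were Hes6 (1.67), Mycl (1.12), of a MYC-family factor, and Pou3f4 (0.54). The lower ones were Neurod4 (-2.94), Pou3f2 (-1.77), of a neural POU factor, Mycn (-1.52), of another MYC-family factor, and Lhx2 (-0.54). Mycl was 7.79, 7.67 and 8.07 log2 in the Pkd1l3-high tumours, against 6.05 to 7.40 (median 6.76) in the other 20. Mycn was 6.13, 6.13 and 6.42 in the Pkd1l3-high tumours, against 6.73 to 8.39 (median 7.82) in the other 20. Of the 8 calls 5 were lost at least once with 1 of the 3 tumours left out, those of Neurod4, Pou3f2, Hes6, Lhx2 and Pou3f4, each of them without P803.

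Of 16 prostate lineage and androgen-response genes 1 was higher and 2 were lower. Foxa2, a forkhead factor gene of endoderm and of neuroendocrine prostate tumours, was 9.33, 10.11 and 9.70 log2 in the Pkd1l3-high tumours, against 6.52 to 8.28 (median 7.20) in the other 20 (2.39 ± 0.29, limma adjusted p = 3e-06). Hoxb13, of the prostate homeobox factor, was 5.61, 6.35 and 6.83 in the Pkd1l3-high tumours, against 7.22 to 9.31 (median 8.91) in the other 20 (-2.44 ± 0.33, limma adjusted p = 1.2e-05). The classes did not overlap on either gene. The related forkhead gene Foxa1, a cofactor of the androgen receptor, was 10.56, 10.15 and 11.05 in the Pkd1l3-high tumours, against 8.91 to 11.25 (median 10.84) in the other 20. The third called gene, Gata2, was lower by 1.48, and its adjusted p without P803 was 0.273 (limma).

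Hoxb13 was the only lower gene of its cluster. Of the 10 measured genes of the HoxB cluster, looked up after Hoxb8 and Hoxb9 had appeared among the leading genes, the 7 from Hoxb3 to Hoxb9 were higher, while Hoxb1 and Hoxb2 did not pass the threshold. Hoxb9 was 11.22, 9.98 and 9.75 log2 in the Pkd1l3-high tumours, against 5.52 to 9.09 (median 6.10) in the other 20, and Hoxb8 was 9.14, 8.65 and 7.69, against 3.23 to 7.61 (median 3.88) in the other 20. Both separated the classes. Hoxb6 was 10.26, 9.74 and 6.65 in the Pkd1l3-high tumours, against 4.39 to 8.94 (median 4.91) in the other 20. The calls of Hoxb3, Hoxb4 and Hoxb5 were lost without P569 and without P803 (limma adjusted p = 0.0632 to 0.143). P1469 was lower than P569 and P803 on each of the 7 genes, and P500 and P609 of the other 20 reached or came near the Pkd1l3-high level on several of them. None of 9 HoxA or 9 HoxC genes was past the threshold, and of 8 HoxD genes Hoxd1 (0.49) and Hoxd9 (1.36) were higher. Both calls were lost without P1469, and that of Hoxd9 also without P569. The call of Hoxd1 was lost as well without P803, under quantile normalization, with centred arrays and with composition covariates. The HoxB genes neighbour each other on chromosome 11 and are not independent of one another.

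**Figure D4:**
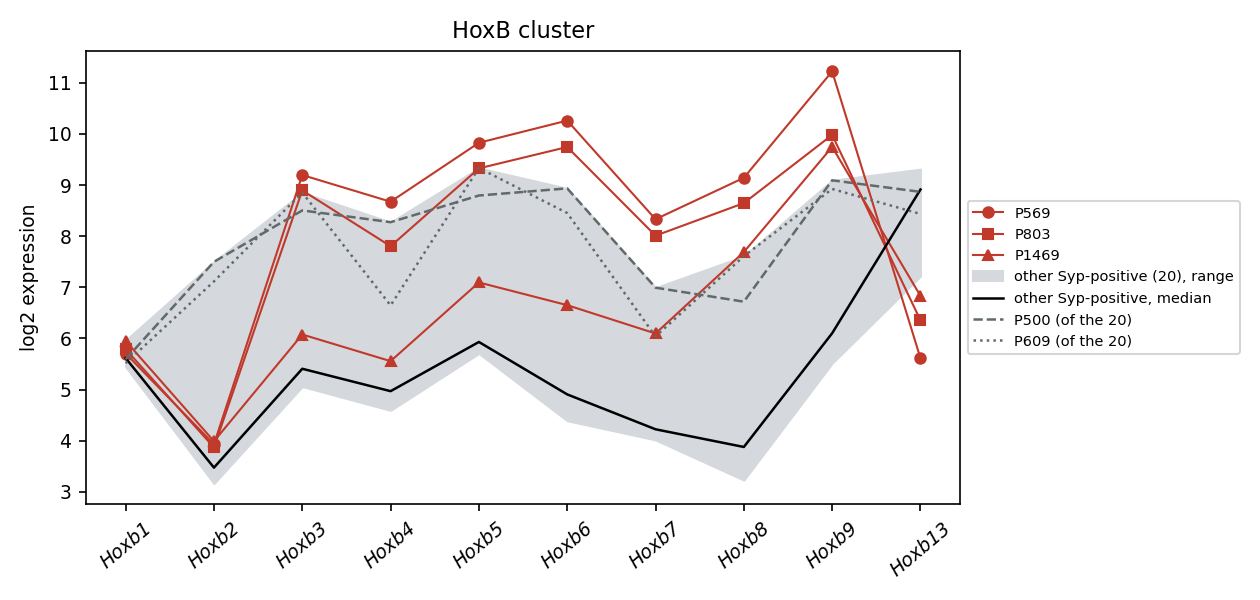
Log2 expression (y axis) of the 10 measured HoxB genes in cluster order (x axis), as 1 red line for each Pkd1l3-high tumour, with the range and median of the other 20 Syp-positive tumours in grey and black and P500 and P609 as dashed and dotted lines. From Hoxb3 to Hoxb9 the 3 tumours lie above the median of the 20, and at Hoxb13 they lie below the whole range.

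Neuronal cytoskeleton and RNA-binding genes were lower in the Pkd1l3-high tumours, with 15 of 28 lower and 1 higher (median difference -0.55 log2). Of these 16 calls 6 were lost at least once with 1 of the 3 Pkd1l3-high tumours left out. Dcx, of the microtubule protein doublecortin of young neurons, was 5.31, 6.17 and 5.24 log2 in the Pkd1l3-high tumours, against 8.32 to 9.997 (median 9.15) in the other 20 (-3.58 ± 0.29, limma adjusted p = 4e-09). Gap43, of a growth cone protein, was 6.59, 5.90 and 5.63 in the Pkd1l3-high tumours, against 8.18 to 9.81 (median 9.26) in the other 20 (-3.10 ± 0.28, limma adjusted p = 2.3e-08). Stmn4, related to the marker Stmn2, was 4.63, 5.08 and 4.18 in the Pkd1l3-high tumours, against 6.82 to 8.12 (median 7.48) in the other 20. Its difference was -2.80, and -1.21 with the mean of its rows in place of the one with the highest mean. None of these 3 genes overlapped between the classes. Further lower members were the intermediate filament gene Prph (-2.67), the neuronal splicing factor gene Nova1 (-2.27), Dpysl3 (-2.21), the tau gene Mapt (-1.46) and Elavl4 (-1.15), while Celf3 was higher (1.02).

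Neural adhesion genes were split, with 8 of 24 lower and 4 higher (median -0.53 log2). Lrrtm4, of a synaptic leucine-rich repeat protein, was 6.52, 4.92 and 5.03 log2 in the Pkd1l3-high tumours, against 7.16 to 9.22 (median 8.81) in the other 20. Its difference was -3.17, and -1.64 with the mean of its rows in place of the one with the highest mean. Nrxn3, of the presynaptic protein neurexin 3, was 5.13, 5.54 and 7.501 in the Pkd1l3-high tumours, against 7.998 to 10.16 (median 9.08) in the other 20, with P1469 the highest of the 3. Cntn1, of contactin 1, had a difference of -4.08 ± 0.62 (limma adjusted p = 5e-05), whereas its relative Cntn4 was higher (2.40), so members of 1 family moved in opposite directions. Among the other higher ones were Lrrtm1 (1.78) and Nfasc (1.06), whose call was lost without P803. Chl1 was higher by 2.55 to 3.07 with 1 of the 3 Pkd1l3-high tumours left out. Its call was lost in each of these fits (limma adjusted p = 0.0705 to 0.144). Of the 12 calls of this list 3 were lost at least once in this way. Ncam1, a neural and neuroendocrine adhesion gene, was lower by 0.86.

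Synaptic vesicle and channel genes were called in both directions. Of 25 synaptic vesicle and exocytosis genes other than Syp, 4 were higher and 3 lower. Pairs of relatives again moved apart, with Cplx2 higher (1.11) and Cplx1 lower (-1.64), both complexin genes, and Cadps2 higher (2.19) and Cadps lower (-0.87), both of granule priming. The call of Cadps was lost without P803 and without P569. Of 32 voltage-gated channel genes 8 were higher and 6 lower, and 9 of these 14 calls were lost at least once with 1 of the 3 tumours left out. The largest were the potassium channel gene Kcnh6 (3.19 ± 0.30, limma adjusted p = 3.7e-08), higher, and Kcnma1, lower (-1.96), whose call was lost without P803 (limma adjusted p = 0.146) and whose difference was 0.72 with the mean of its rows in place of the brightest one. Of 31 ligand-gated channel genes 3 were higher and 4 lower (median difference -0.56 log2), 3 of these 7 calls were lost at least once with 1 of the 3 tumours left out, and the mean level of the list was 6.13, 6.01 and 6.02 log2 in the Pkd1l3-high tumours, against 6.19 to 7.20 (median 6.51) in the other 20. The classes thus did not overlap on that mean. Gabrb1, of a GABA receptor subunit, differed by 2.47 and Grik2, of a kainate receptor subunit, by -2.48.

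The 20 lower genes that led the comparison also held peptides, growth factors and receptors. Nmu, of the neuropeptide neuromedin U, was 6.06, 5.51 and 5.90 log2 in the Pkd1l3-high tumours, against 6.28 to 12.09 (median 10.22) in the other 20 (-4.37 ± 0.71, limma adjusted p = 0.00012). P609 was the lowest of the 20 and lay close above the Pkd1l3-high tumours. Of 26 neuropeptide and hormone genes 3 were lower, Nmu among them, and 3 were higher by no more than 0.61, and 5 of these 6 calls, all but that of Nmu, were lost at least once with 1 of the 3 tumours left out. Ntrk2, of the BDNF receptor TrkB, was 5.87, 6.06 and 5.59 in the Pkd1l3-high tumours, against 7.11 to 10.12 (median 9.47) in the other 20. Tgfb2, of a transforming growth factor, was 5.89, 6.18 and 5.86 in the Pkd1l3-high tumours, against 7.37 to 10.51 (median 9.08) in the other 20. Both lay below all of the other 20 tumours. The remaining genes of this set were Asb4 (-4.11), Igsf21 (-3.63), Sncaip (-3.60), Psd2 (-3.46), Csmd3 (-3.30), Eya4 (-3.27), Slc6a11 (-3.16), Pon3 (-3.05), Csrnp3 (-2.96), Shc3 (-2.88) and Lrrn1 (-2.82).

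Of the leading higher genes not yet described, Vil1, of the microvillus protein villin, was 9.24, 10.96 and 10.79 log2 in the Pkd1l3-high tumours, against 5.01 to 6.89 (median 5.98) in the other 20. Krt20, a keratin of gut and Merkel cells, was 10.16, 8.37 and 10.11 in the Pkd1l3-high tumours, against 4.44 to 9.18 (median 4.87) in the other 20, where P217 overlapped with P803. Vil1 and Krt20 are used by intestinal cells, and of 17 intestinal genes looked up after these values were seen 3 were higher, these 2 and Isx (1.27), whose call was lost without P569. The intestinal factors Cdx1 (0.35) and Cdx2 (0.12) did not pass the threshold. A2ml1, of a protease inhibitor, was uneven, at 11.29, 7.47 and 8.27 in the Pkd1l3-high tumours, against 4.47 to 5.02 (median 4.72) in the other 20. Neto1, of an auxiliary subunit of glutamate receptors, was even, at 7.87, 7.93 and 8.18 in the Pkd1l3-high tumours, against 3.47 to 5.12 (median 3.81) in the other 20. Mctp2 (4.55), Tmem45b (4.47) and Tmem184a (4.37) complete the set.

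Notch ligand genes were higher in part. Of 19 Notch pathway genes 4 were higher and 2 lower. Dll1, of a ligand, was 8.45, 9.41 and 8.80 log2 in the Pkd1l3-high tumours, against 5.77 to 7.82 (median 6.45) in the other 20 (2.37 ± 0.29, limma adjusted p = 3.4e-06). Jag2, of another ligand, was 9.24, 9.47 and 9.94 in the Pkd1l3-high tumours, against 7.35 to 8.75 (median 8.10) in the other 20. Jag1, its relative, was 5.74, 6.44 and 6.49 in the Pkd1l3-high tumours, against 7.11 to 8.31 (median 7.70) in the other 20, a difference of -1.51, so the 2 Jagged genes moved in opposite directions and each separated the classes. Lfng, of a glycosyltransferase that modifies Notch receptors, was higher (1.58), and so was Dll3 (0.70), a ligand-family gene whose call was lost under quantile normalization, with centred arrays and without any 1 of the 3 tumours (limma adjusted p = 0.361 without P569), as well as without any 1 of 12 of the other 20. The receptor gene Notch1 was lower (-1.43), a call lost without any 1 of the 3 tumours. Of 25 receptor tyrosine kinase genes 2 were higher, Ret (2.50) and Fgfr2 (1.68), and 3 lower, Ntrk2, Erbb4 (-2.34) and Pdgfra (-1.89). The calls of Ret, Fgfr2, Erbb4 and Pdgfra were each lost without P803 and without P1469, so that Ntrk2 was the call of this list that stayed. Of 22 Wnt pathway genes 1 was higher and 1 lower.

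A few cell cycle genes were lower. Of 13 mitosis genes 3 were lower and none higher (median difference -0.34 log2), and of 14 DNA replication genes 5 were lower and none higher (median -0.21). With 1 of the 3 tumours left out, 2 of the 3 mitosis and 4 of the 5 replication calls were lost at least once. Gins1, of the replicative helicase complex, was 6.16, 6.30 and 6.63 log2 in the Pkd1l3-high tumours, against 7.10 to 7.70 (median 7.38) in the other 20 (-1.03 ± 0.13, limma adjusted p = 4.3e-06). Ttk, of a spindle checkpoint kinase, was 8.15, 8.24 and 8.33 in the Pkd1l3-high tumours, against 8.21 to 9.49 (median 8.99) in the other 20. Gins1 separated the classes and Ttk did not. The mean level of the mitosis list was 10.09, 9.73 and 9.83 log2 in the Pkd1l3-high tumours, against 9.77 to 10.64 (median 10.28) in the other 20, so the classes overlapped. Of 11 hypoxia and glycolysis genes only the glucose transporter gene Slc2a1 was past the threshold (1.45).

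Few markers of other cell types that a tumour piece can hold passed the threshold, and their part in the results was not tested. The median differences of their lists ran from -0.46 log2 (macrophage) to 0.08 (class I antigen presentation). Smooth muscle (9 genes), skeletal muscle (8), T and NK cell (8), adipose (7) and class I antigen presentation (8) lists had no gene past the threshold. The mean smooth muscle level was 7.62, 6.85 and 7.18 log2 in the Pkd1l3-high tumours, against 6.47 to 9.55 in the other 20. The fibroblast level was 7.71, 6.31 and 7.44 in the Pkd1l3-high tumours, against 6.49 to 8.60 in the other 20, with 2 of 10 genes lower, Pdgfra and Fbln1. The macrophage level was 7.13, 5.86 and 6.52 in the Pkd1l3-high tumours, against 6.35 to 7.93 in the other 20, with 1 of 12 lower, Cd68. All 3 of these calls were lost without P803 (limma adjusted p = 0.206 to 0.297). They were also lost with composition covariates, but those levels include the 3 genes themselves, so that loss is built in and shows nothing. On the B and plasma cell list 1 of 6 genes was higher, Mzb1 (0.86), and on the interferon response list 1 of 9, Rsad2 (1.52), calls that were lost without P803 for Mzb1 and without P569 or P1469 for Rsad2. P803 thus lay below all 20 on fibroblast and macrophage genes, and it was the tumour whose removal changed the count of calls most. With the fibroblast, smooth muscle, macrophage and endothelium levels as covariates 2224 genes were past the threshold, 843 of them lower.

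Vwf, of the clotting protein von Willebrand factor and usually a mark of blood vessels, stood apart from its list. It was 10.89, 10.42 and 10.28 log2 in the Pkd1l3-high tumours, against 5.76 to 7.67 (median 6.33) in the other 20 (4.11 ± 0.28, limma adjusted p = 9.3e-11). The other 7 endothelial genes, among them Pecam1 (-0.22), Cdh5 (-0.35) and Kdr (-0.18), did not pass the threshold. The mean level of the 8 genes was 6.99, 6.84 and 7.13 in the Pkd1l3-high tumours, against 5.61 to 7.52 in the other 20. Of 10 vessel and clotting genes looked up after the value of Vwf was seen, 3 were higher and none lower. They were Vwf itself, Angpt2 (1.40) and F8 (0.64). The calls of Angpt2 and F8 were lost without P803 and without P1469 (limma adjusted p = 0.107 to 0.191).

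Seminal vesicle secretion genes, a mark of neighbouring tissue, had none of 6 past the threshold, but their mean level was 6.19, 4.55 and 4.61 log2 in the Pkd1l3-high tumours, against 3.94 to 6.70 in the other 20, so that P569 was the high one of the 3. The 3 measured Y-linked genes were all lower, and unevenly. Uty was 5.14, 8.57 and 4.78 log2 in the Pkd1l3-high tumours, against 7.41 to 9.61 (median 8.63) in the other 20. Kdm5d was 4.63, 7.48 and 7.04 in the Pkd1l3-high tumours, against 6.65 to 8.84 (median 8.18) in the other 20, and Eif2s3y was 5.86, 9.04 and 8.54, against 7.64 to 9.61 (median 9.28) in the other 20. P569 was below all 20 on each of the 3 genes, P1469 only on Uty, and P803 on none. Without P569 the adjusted p was 0.131 for Kdm5d and 0.662 for Eif2s3y (limma).

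Set against the 4 Syp-low tumours, the Pkd1l3-high tumours differed on few junction genes and were higher on most granin and synaptic genes. In a fit of the 3 classes over all 27 tumours, 2925 genes (13.2%) differed between them, 1645 (7.42%) higher and 1280 (5.77%) lower in the Pkd1l3-high tumours (limma adjusted p under 0.05). Both classes come from values of the same arrays here too, and Syp is itself a neuroendocrine gene. Of the adherens junction and desmosome genes none of 12 was higher than in the Syp-low tumours and 3 were lower, and of the tight junction genes none of 18 was higher and 2 were lower. Krt8 averaged 11.68 ± 0.03 log2 in the Pkd1l3-high tumours and 11.49 ± 0.28 in the Syp-low tumours (SD, n = 3 and 4), and Dsp averaged 10.32 ± 0.09 in the Pkd1l3-high and 10.37 ± 0.33 in the Syp-low tumours. A p that misses the threshold does not show equal levels. Cldn4 was the tight junction gene that differed most, at 6.82, 5.73 and 5.34 in the Pkd1l3-high tumours, against 10.48, 9.92, 11.001 and 11.40 in the Syp-low tumours P425, P471, P966 and P1276.

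Of the granin and processing genes 9 of 11 were higher than in the Syp-low tumours (median difference 3.21 log2), of the synaptic genes 19 of 25 (median 1.93) and of the neuronal cytoskeleton genes 16 of 28 (median 1.61), with 1 lower in the last. Chga was 10.89, 11.55 and 11.33 log2 in the Pkd1l3-high tumours, against 7.31, 5.91, 7.19 and 7.57 in the Syp-low tumours (4.26, limma adjusted p = 8.8e-10). Not every neuronal gene kept this position. Dcx averaged 5.57 ± 0.52 in the Pkd1l3-high tumours and 5.72 ± 0.74 in the Syp-low tumours, and Gap43 averaged 6.04 ± 0.50 in the Pkd1l3-high and 6.04 ± 0.48 in the Syp-low tumours. Wnt pathway genes were lower than in the Syp-low tumours in 11 of 22 cases and higher in 1, and interferon response genes lower in 6 of 9 and higher in none.

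Among the leading genes some were high in the Pkd1l3-high tumours against both other classes. Tph1 was 5.61, 5.51, 6.42 and 6.25 log2 in the Syp-low tumours, and the Pkd1l3-high tumours lay 5.05 above them (limma adjusted p = 1.5e-05). Iapp, Neto1 and A2ml1 lay 4.55, 3.99 and 4.30 above the Syp-low mean, and Pcsk1, Hoxb8 and Hoxb9 lay 5.83, 4.38 and 3.97 above it. Gad1, of the taste cell set and not among the leading genes, lay 3.92 above the Syp-low mean. Pkd2l1 lay 3.18 above it, since the Syp-low tumours had 5.34, 7.04, 7.79 and 7.06 log2. By contrast Otop1 was 9.36, 11.71, 11.89 and 11.98 in the Syp-low tumours, a difference of 0.15 (limma adjusted p = 0.94), so high Otop1 was found in both classes while high Pkd1l3 was not. Tgfb2 and Pon3 were lower than in either class, at -2.88 and -2.67 against the Syp-low tumours, though the call of Pon3 was lost without any 1 of P569, P803, P1469, P425 or P471. The 2 comparisons share the 3 Pkd1l3-high tumours and are not independent.

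**Figure D5:**
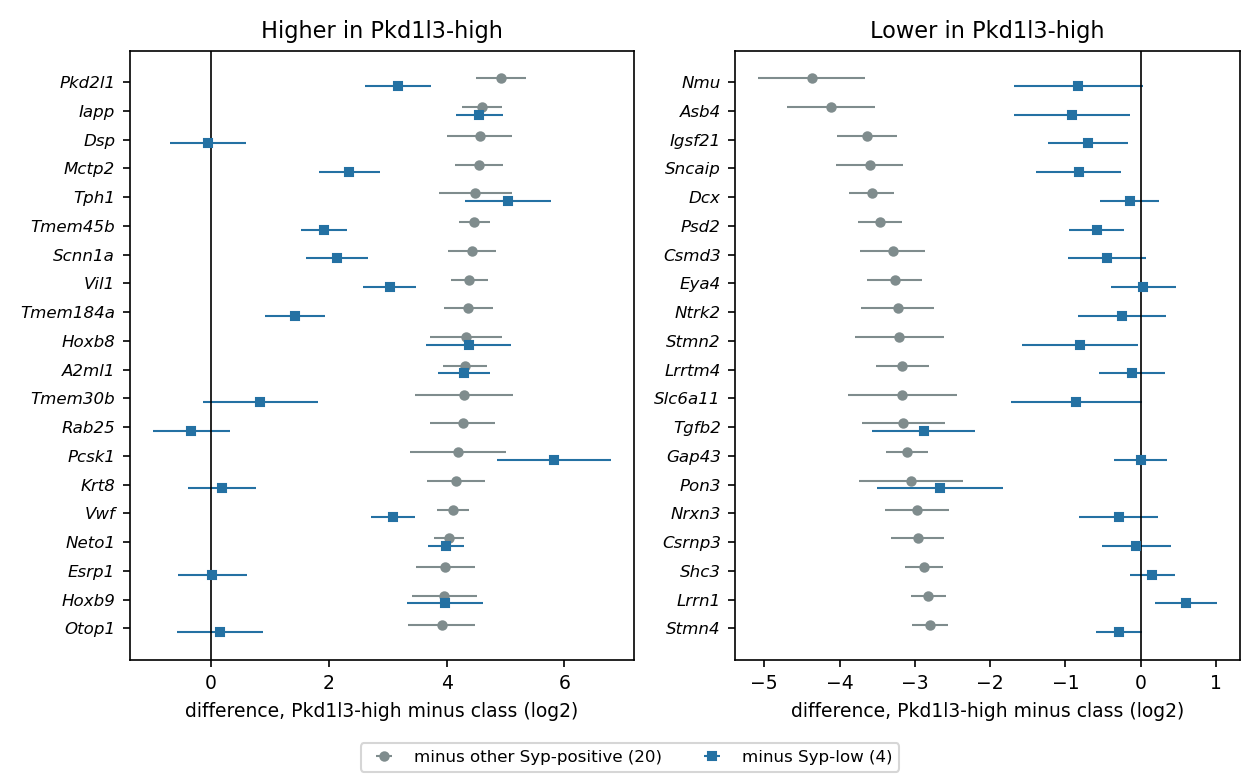
For the 20 leading higher genes (left) and 20 leading lower genes (right), the difference in log2 (x axis) of the 3 Pkd1l3-high tumours minus the other 20 Syp-positive tumours (grey circles) and minus the 4 Syp-low tumours (blue squares), with bars of 1 SE from limma. Dsp, Rab25, Krt8, Esrp1 and Otop1 lie near 0 against the Syp-low tumours, while Tph1, Iapp, A2ml1 and Neto1 lie about as far from both.

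The 3 Pkd1l3-high tumours also differed from each other. P569 lay more than 3 log2 above the other two on 14 genes and that far below on none. P803 did so on 11 genes above and 6 below, and P1469 on 5 above and 4 below. These are descriptions, since 1 tumour against 2 allows no test.

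In P569 the leading genes included the seminal vesicle secretion genes Svs5 (11.28, 7.38 and 6.91 log2) and Svs2 (9.10, 4.88 and 5.32), the plasma cell gene Jchain (7.92, 4.09 and 3.86) and the calcitonin receptor gene Calcr (9.46, 5.63 and 5.68). Each of these 4 also reached the P569 level or near it in some of the other 20, whose highest values were 12.58, 9.97, 7.79 and 12.03. Mylk4, of a myosin light chain kinase, was different, at 10.14, 6.32 and 5.96 in the Pkd1l3-high tumours, against 4.34 to 7.63 (median 4.91) in the other 20. Cntn6, of another contactin, was likewise high in P569 alone, at 7.64, 3.82 and 3.93 in the Pkd1l3-high tumours, against 3.59 to 5.04 (median 4.05) in the other 20. Atp10b was likewise high in P569 (8.26, 4.47 and 4.51), above the highest of the other 20 (7.13). On Sgce P569 was instead at the usual level and P803 and P1469 were the low ones, at 9.46, 5.47 and 5.71 in the Pkd1l3-high tumours, against 5.195 to 10.07 (median 9.50) in the other 20.

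P803 had several genes that no other Syp-positive tumour carried at that level. Tm4sf4, of a tetraspan membrane protein, was 4.02, 10.92 and 4.30 log2 in the Pkd1l3-high tumours, against 3.79 to 4.62 (median 4.14) in the other 20. Cpn1, of a carboxypeptidase, was 4.29, 9.51 and 4.51 in the Pkd1l3-high tumours, against 3.75 to 4.60 (median 4.11) in the other 20. Aldh1a2, of a retinoic acid synthesising enzyme, was 5.59, 10.89 and 6.29 in the Pkd1l3-high tumours, against 4.17 to 6.44 (median 5.69) in the other 20. In each of these 3 genes P569 and P1469 lay within the range of the other 20. Baiap3 (6.70, 11.05 and 6.69) and Adgb (4.07, 7.58 and 3.92) showed the same pattern, and Fam171b (5.54, 10.32 and 4.72) was also high in some of the other 20. Cdk6, of a cell cycle kinase, was low in P803, at 9.41, 5.67 and 10.11, and so was Fgl2 (10.57, 7.10 and 10.89).

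P1469 was set apart by Tmem255b (5.32, 6.10 and 10.66 log2) and by Slc6a20a, of a proline transporter, at 5.93, 6.16 and 10.57 in the Pkd1l3-high tumours, against 5.25 to 6.31 (median 5.73) in the other 20. Nefl, of the light neurofilament, was 7.72, 4.61 and 11.02 in the Pkd1l3-high tumours, against 4.86 to 11.04 (median 8.16) in the other 20, so on this neuronal gene P1469 lay near the top of the other 20. Sim2 was high in P1469 (5.43, 5.81 and 9.44), above the highest of the other 20 (8.70). Rfx4 was low in it, at 9.48, 10.64 and 5.35 in the Pkd1l3-high tumours, against 5.76 to 10.06 (median 7.99) in the other 20. On Ctxn3, P1469 was at the usual level and P569 and P803 were the high ones, at 8.48, 8.59 and 4.83 in the Pkd1l3-high tumours, against 4.19 to 6.40 (median 4.87) in the other 20. On Vcan, of the matrix proteoglycan versican, the values were 9.06, 9.77 and 5.98 in the Pkd1l3-high tumours, against 5.70 to 8.94 (median 6.57) in the other 20, and on it and on Hoxb6, P1469 lay within the range of the other 20 and P569 and P803 above it.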

How the data were processed

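Per the labels, total RNA of each tumour was labelled with biotin for 1 array. The authors deposited 1 table of log2 expression values with 41345 rows for the 27 arrays, ranging from 1.68 to 14.5, and the array medians fall between 5.67 and 5.82. The submitters' processing notes name Partek as the tool. Background correction and normalization are unstated in the sources used, and an effect those steps removed is out of sight. Precision is limited by the number of arrays, which have no read depth.

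Rows were named through the platform's annotation: 23521 had 1 symbol, 1814 several and 16010 are unnamed here. Rows with 1 symbol gave 22180 genes, and for 1082 genes with several rows the one with the highest mean was kept. Pkd1l3 and Syp, which set the classes, were left out of the fits, and the rest were fitted with limma 3.58.1 in R 4.3.3 (lmFit, eBayes with trend, Benjamini-Hochberg over 22178 genes). The main fit held the 23 Syp-positive tumours, and the comparison with Syp-low tumours came from a 3-class fit over 27. The main fit was also run on simulated data with independent genes and known differences. The simulated classes were not drawn from the values, so that run does not bear on the calls here. The tumours come from different animals, so the p-values set a class difference against the spread between animals. The text names the class markers, the 20 genes with the largest difference each way among those past the threshold without overlap between the classes (Rik, Gm and similar symbols left out), up to 5 members of each list, 8 genes each way against the Syp-low tumours and 8 genes per tumour within the class. Further genes in the text were picked with their values in view. The members, the 37 gene lists and the tests were chosen with earlier results of these data known. Sequences are from RefSeq (GRCm38.p6), where 13 of 20 leading higher and 13 of 20 leading lower genes had a promoter. Alternatives covered normalization, the variance trend, dim genes, rows per gene, tumours in the fit and tissue composition.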

Additional observations from a re-analysis of the deposited data

How the results depend on the processing

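Against the other 20 Syp-positive tumours, leaving out each of the 23 tumours in turn gave 1872 (without P803) to 3774 (without P219) genes past the threshold, 1172 to 2211 of them higher and 700 to 1563 lower, so the counts depend on single tumours and most on the 3 Pkd1l3-high ones. With fibroblast, smooth muscle, macrophage and endothelium levels as covariates the count was 2224, 843 of them lower, and the cause was not tested. Quantile normalization gave 1867 higher and 1540 lower, centring of each array 1590 and 1539, no intensity trend 2054 and 1410, genes above the median level alone 1556 and 1528, the mean of a gene's rows 2010 and 1356, and the 3-class fit 1820 and 1138. The 20 leading higher and 20 leading lower genes stayed past the threshold under every one of these alternatives that kept the gene. They were picked for large differences without overlap on the same arrays, so this was largely fixed in advance and supports nothing. With the mean of a gene's rows the differences of Stmn4 and Lrrtm4 were -1.21 and -1.64, in place of -2.80 and -3.17, and no other of the 40 moved by over 1.5 times. Kcnma1 reversed with the mean of its rows, to 0.72 (limma adjusted p = 0.463), since its rows disagree. Against the Syp-low tumours the higher count was 1457 to 1681 and the lower 1144 to 1427 under the normalization, trend and dim-gene alternatives, and 1219 to 1681 and 883 to 1669 leaving out 1 of the 7 tumours in turn. No paired analysis was possible because each tumour came from a different animal, with 1 array per tumour. Low levels near background limit the folds.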

Other observations

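Median differences per chromosome were taken after setting each gene against the other 20 Syp-positive tumours. Only genes whose mean in those 20 lay above the median gene mean were used, so dim genes were left out. The medians stood outside the range of the 20 in places. P803 had a median of −0.57 log2 on chromosome 14, against −0.29 to 0.08 in the other 20. P569 had −0.29 on chromosome 2, against −0.12 to 0.11 in the other 20, and −3.47 over the Y-linked genes. P1469 had 0.20 on chromosome 12, against −0.16 to 0.09 in the other 20. On chromosome 11, which holds the HoxB genes, P569 had 0.17, just above the highest of the 20 (0.15). P569 lay slightly below the range on chromosomes 1, 3, 12 and 18, and P1469 on chromosome 1. These are values of single tumours with no test, and their link to the Pkd1l3-high class was not tested.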
